A study of Mus musculus with 24 samples.

Results

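MicroRNAs that had carried a 4-thiouridine (4SU) label through 12 h of chase were compared with the unfractionated small RNA of the same cell type. The 5 libraries were taken by their labels: 3 of purified labelled RNA after 12 h of chase, 1 from each of 3 experiments, and 2 of total RNA that had not gone through the purification. They are 5 of the 24 libraries of the series. All came from 3T9 cells, which are fibroblasts of mouse embryos that grow without limit in culture.

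4SU is a uridine analogue that cells build into new RNA, and its thiol group can be coupled to biotin. In the 12 h group, cells had received 300 µM 4SU for 3 h and then 1 mM uridine for 12 h. Their RNA was biotinylated from 40 µg of total RNA and captured on streptavidin beads. The first total RNA library came from untreated cells and the second from cells pulsed with 4SU, 1 library each, so neither has a replicate. Labelled RNA at 0 h of chase (3 libraries) and a negative extraction (1 library, untreated cells taken through the purification) are given beside the comparison. The library step was the same Illumina TruSeq small RNA protocol, with 300 ng of input, in every group.

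A microRNA (miRNA) is cut from a hairpin whose 5p and 3p arms can both be loaded into Argonaute. Usually one arm, the guide, outlasts the other, the passenger. Bases 2 to 8 of the mature miRNA, the seed, pair with target mRNAs, and miRNAs with the same seed form a family. The 3' end can be trimmed or extended, which gives isoforms of one miRNA. Labelled RNA after a long chase holds molecules made during the pulse that have survived since, whereas total RNA holds molecules of every age. The comparison asks which miRNAs, arms and isoforms of this old pool had the proportions of total RNA and which did not.

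The sequences below, from RefSeq (GRCm38.p6), are those on which the results turn. They are grouped by seed, which is in capitals, and each group after the first 3 lines holds family members whose results can be set side by side. The first 3 are the miRNA with the largest deficit at 12 h, and the most and second most abundant miRNAs of total RNA.
miR-193a-3p: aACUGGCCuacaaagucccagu
miR-22-3p: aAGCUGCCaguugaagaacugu
miR-21a-5p: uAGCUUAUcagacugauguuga
let-7a-5p: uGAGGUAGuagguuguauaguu
let-7f-5p: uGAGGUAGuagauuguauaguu
let-7i-5p: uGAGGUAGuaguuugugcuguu
miR-92a-3p: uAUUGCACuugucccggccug
miR-25-3p: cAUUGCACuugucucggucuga
miR-181b-5p: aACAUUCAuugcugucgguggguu
miR-181c-5p: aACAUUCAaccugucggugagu
miR-30a-5p: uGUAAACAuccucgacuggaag
miR-30e-5p: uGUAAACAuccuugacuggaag
miR-93-5p: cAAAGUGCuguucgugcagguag
miR-106b-5p: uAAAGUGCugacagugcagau
miR-130a-3p: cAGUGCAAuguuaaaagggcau
miR-301a-3p: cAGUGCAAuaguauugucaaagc
miR-29a-3p: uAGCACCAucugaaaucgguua
miR-29b-3p: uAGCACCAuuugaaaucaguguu

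Several of these genes lie within other genes in the GENCODE vM21 annotation of GRCm38. miR-106b-5p (chr5:138165787-138165807, minus strand) lies in an intron of Mcm7, which encodes a replicative helicase subunit, and miR-93-5p (chr5:138165574-138165596) overlaps an annotated exon of the same gene. miR-30e-5p (chr4:120772660-120772681, minus strand) lies in an intron of Nfyc and miR-301a-3p (chr11:87113054-87113076, plus strand) in an intron of Ska2. miR-21a-5p (chr11:86584120-86584141, minus strand) overlaps an exon of Vmp1. miR-22-3p (chr11:75463772-75463793, plus strand) lies in an exon of its noncoding host Mir22hg. miR-193a-3p (chr11:79712009-79712030, plus strand) and miR-130a-3p (chr2:84741116-84741137, minus strand) lie in no annotated host gene on their strand.

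The summed miRNA count was 3281631, 1133048 and 2533106 in the 12 h libraries of experiments 1, 2 and 3, against 6412428 in unlabelled and 4525638 in 4SU-pulsed total RNA, and 283922 in the untreated cells taken through the purification. The 0 h libraries of experiments 1, 2 and 3 were deeper than those of 12 h, at 7733333, 3019171 and 4613499. The value of 3 counts is 0.914, 2.65 and 1.18 CPM (counts scaled to a common miRNA total) at 12 h and 10.6 CPM in the negative extraction. Experiments 1 and 3 lay nearer to each other (median absolute log2 ratio 0.39) than either lay to experiment 2 (0.72 and 0.62), the shallowest library. A code of unexplained meaning stands in the table's second header line. The total RNA libraries share one such code, the labelled experiments have others, and the negative extraction has that of experiment 1. No value of 12 h against total RNA within one code can therefore be had, and in that comparison label age, purification and this code cannot be told apart. The 0 h and 12 h libraries of one experiment share the code and the purification, so neither differs in the contrast of 12 h with 0 h.

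Of 505 miRNAs tested, 98 (19.4%) differed between 12 h and total RNA, 46 higher (9.11%) and 52 lower (10.3%), by edgeR's quasi-likelihood test at a Benjamini-Hochberg adjusted p below 0.05. For 43 (8.51%) the 95% interval of the difference lay within 2-fold of total RNA, and 364 met neither criterion. The 43 became 22 without unlabelled and 27 without 4SU-pulsed total RNA. At an unadjusted p below 0.05 there were 173. The called miRNAs that were higher held 42.9% of the reads at 12 h, against 21.3% in total RNA, and those that were lower held 5.07%, against 22.1%. At 0 h of chase, 133 of the same 505 (26.3%) were called against the same total RNA libraries, with 38 within 2-fold. In the direct contrast of 12 h with 0 h only 1 (0.198%) was called, with 59 at an unadjusted p below 0.05. The 12 h and 0 h comparisons share their total RNA libraries, so their counts are not independent. Their depths also differ, with the 0 h libraries deeper. All labelled libraries come from the same 3 experiments. The fit treats them as separate samples, so against total RNA intervals may be too narrow and calls too many. The contrast of 12 h with 0 h was fitted without pairing by experiment. The spread between experiments stays in its error, so there intervals may be too wide and calls too few.

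The scaling sets the balance between higher and lower. CPM values are scaled by the library total, whereas the tests use TMM scaling, which put the median log2 difference of all tested miRNAs at 0.18. With total counts only, the median was -0.21 and 24.8% of 109 calls were higher, compared with 46.9% of the 98. DESeq2 gave 116 calls, 38.8% of them higher. Beyond scaling, the 4SU-pulsed total RNA library carried much of the count: 46 miRNAs were called when it was left out and 12 h was set against unlabelled total RNA alone, 5 higher and 41 lower. Against 4SU-pulsed total RNA alone there were 78, 33 higher and 45 lower.

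The distance of each library to total RNA was taken as the median over miRNAs of the absolute log2 ratio to the mean of both total RNA libraries. It was 0.60, 1.05 and 0.72 in the 12 h libraries, against 0.67, 0.90 and 0.70 in the 0 h libraries of the same experiments. Over all 505 miRNAs the distance was smaller at 12 h in experiment 1 and larger in experiments 2 and 3. In each experiment the 12 h library was the shallower, and the part of depth in these distances was not tested. The mean difference was 0.03 (exact paired permutation test, two-sided, p = 0.75, n = 3 pairs, where 0.25 is the smallest p possible). Among the 148 miRNAs of at least 100 CPM the distance was 0.57, 0.89 and 0.68 at 12 h, against 0.72, 0.91 and 0.76 at 0 h, and was thus smaller at 12 h in all 3 experiments. This difference was not tested, and 3 pairs cannot give a p below 0.25. The values over all 505 exceeded the 0.46 between the total RNA libraries over the same miRNAs, which is a distance between single libraries and not to a mean. Over the 148, each total RNA library lay 0.19 from their mean. Over these 148 miRNAs the negative extraction lay 0.90 from mean total RNA, and the 12 h libraries lay 0.62, 0.60 and 0.66 from the negative extraction.

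**Figure D1:**
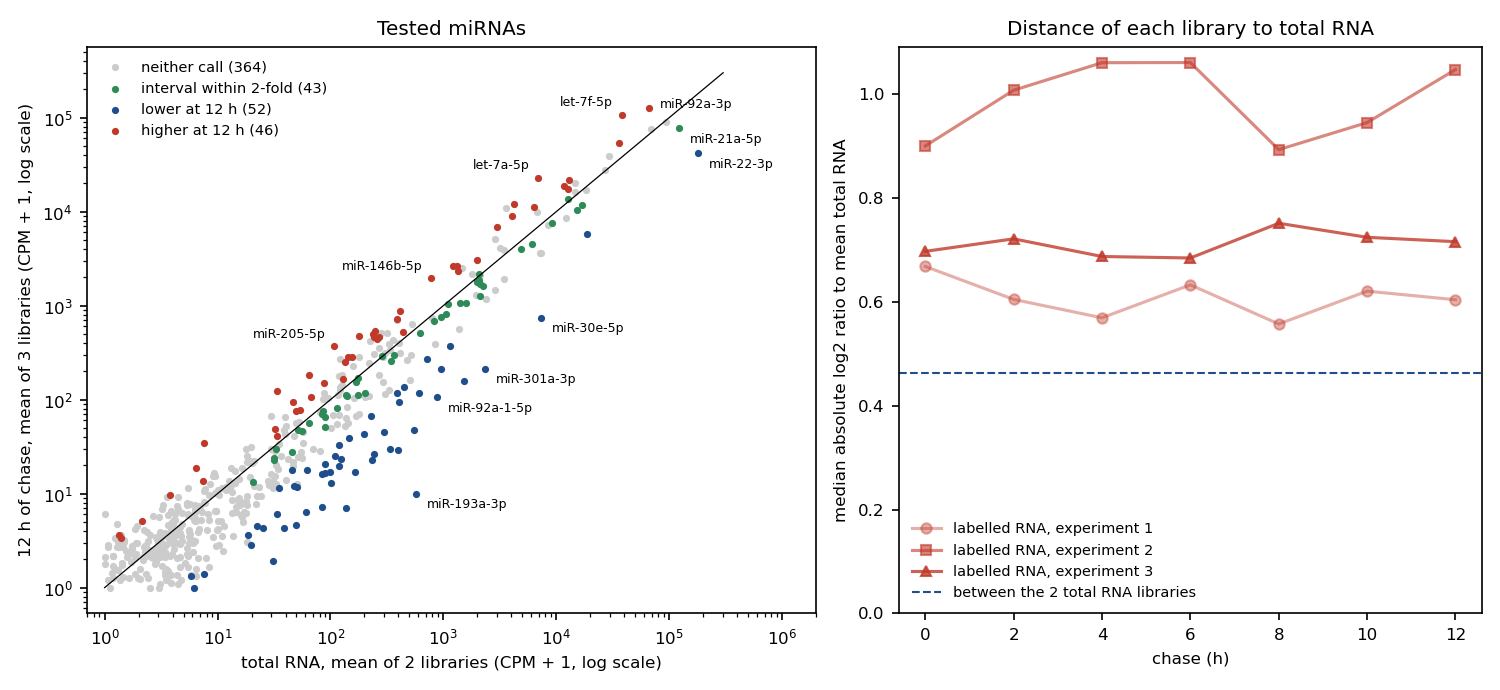
Left, mean CPM plus 1 of 505 miRNAs at 12 h of chase (vertical, 3 libraries) against total RNA (horizontal, 2 libraries), both on log scales, coloured by result, with the line of equality. Right, median absolute log2 ratio to mean total RNA for each labelled library by hour of chase, 1 line per experiment, with the distance between the total RNA libraries (0.46) dashed. The 12 h points of experiments 1, 2 and 3 lie at 0.60, 1.05 and 0.72.

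Among the most abundant miRNAs, miR-22-3p had the largest deficit. It stood at 45529, 41544 and 38129 CPM in the 12 h libraries, against 192630 CPM in unlabelled and 169206 CPM in 4SU-pulsed total RNA, and at 36912 CPM in the negative extraction. The first miRNA of total RNA was thus well below miR-92a-3p, let-7f-5p and miR-143-3p in the old labelled pool, with no overlap between the groups. It fell by 1.72 on the log2 scale (SE 0.26, edgeR adjusted p = 8.43e-05). miR-22 is known as a brake on proliferation in several cell types. miR-30a-5p was also lower, at 4333, 8136 and 4889 CPM at 12 h, against 17008 and 20243 CPM in total RNA (-1.28, adjusted p = 0.0258). Its call was lost when the 12 h library of experiment 1 (adjusted p = 0.0867) or 3 (0.0836) was left out, or with upper-quartile scaling (0.0832).

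miR-92a-3p, the most abundant product of the growth-promoting miR-17~92 cluster, stood at 104782, 158157 and 118652 CPM at 12 h, against 58755 and 74624 CPM in total RNA and 63880 CPM in the negative extraction. It was higher in all 3 libraries than in either total (log2 difference 1.34, SE 0.33, adjusted p = 0.0076), and the call was lost against unlabelled total RNA alone (1.15, adjusted p = 0.0881). At 0 h its log2 difference from total RNA had been 0.44 (adjusted p = 0.349). let-7f-5p and let-7i-5p were higher as well and are taken up with their family.

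miR-21a-5p, a fibroblast miRNA known to promote growth and survival, was the most abundant miRNA within 2-fold of total RNA. Its levels were 55731, 97914 and 78524 CPM at 12 h, against 134101 and 110089 CPM in total RNA and 34192 CPM in the negative extraction. On the TMM scale the difference was -0.25 (95% interval -0.82 to 0.32), compared with -0.97 (interval -1.54 to -0.41, adjusted p = 0.011) at 0 h. miR-21a-5p was also 1.34 log2 above the negative extraction (adjusted p = 0.043). For miR-143-3p, miR-27b-3p, miR-182-5p and miR-26a-5p the differences were 0.34, 0.54, 0.81 and 0.43, with adjusted p of 0.577, 0.27, 0.0679 and 0.462. Their intervals reached past 2-fold, so for these 4 neither a difference nor closeness was shown. With a replicate block for the labelled experiments, miR-27b-3p, miR-182-5p and miR-26a-5p were called higher (0.48, 0.81 and 0.38, adjusted p = 0.016, 2.22e-05 and 0.0326), and miR-182-5p also with an offset for uridine (0.0492) or adenosine (0.0293) content. The block takes the spread between experiments out of the error, and total RNA stands outside it. Its p-values therefore do not measure that spread. miR-27b-3p stood at 102049, 46168 and 81273 CPM at 12 h, on both sides of the 69338 and 68326 CPM in total RNA.

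Another 8 miRNAs of at least 1000 CPM had the narrowest bounds around total RNA: miR-103-3p, miR-125b-5p, miR-30d-5p, miR-93-5p, miR-151-5p, miR-484, miR-298-5p and miR-130a-3p. Their log2 differences ran between -0.31 (miR-130a-3p, interval -0.71 to 0.09) and 0.13 (miR-298-5p, interval -0.38 to 0.64). The sign turned under at least 1 alternative for each of them but miR-130a-3p. miR-484, which is made without the Drosha cleavage that other hairpins need, stood at 1325, 773 and 1075 CPM at 12 h, against 1251 and 1543 CPM in total RNA, a difference of -0.01 (interval -0.59 to 0.58). miR-30d-5p stood at 10432, 10282 and 10222 CPM at 12 h, against 12253 and 18189 CPM in total RNA. With total counts in place of TMM, miR-30d-5p and miR-130a-3p were called lower (-0.53 and -0.70, adjusted p = 0.0403 and 0.0242), and DESeq2 called miR-130a-3p too (-0.50, adjusted p = 0.00659). Of the 60 tested miRNAs at 1000 CPM or more, 17 were within 2-fold, 16 were called higher and 4 lower, and 23 met neither criterion.

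The 12 named miRNAs with the largest deficits at 12 h had log2 differences of -5.61 to -1.99 (adjusted p of 0.00546 or less). The first was miR-193a-3p, described as a tumour suppressor, at 6.09, 14.1 and 6.71 CPM at 12 h, against 408 and 733 CPM in total RNA. The negative extraction held 0 counts of it, which allows up to 10.6 CPM. The groups lay far apart, with each 12 h library above its level of 3 counts (log2 difference -5.61, SE 0.62, adjusted p = 4.71e-06). At 0 h it averaged 11.6 ± 5.42 CPM (SD, n = 3).

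miR-30e-5p was the most abundant of the 12. It stood at 619, 1057 and 541 CPM at 12 h, against 5280 and 9479 CPM in total RNA and 1102 CPM in the negative extraction. The 12 h libraries lay below both totals and also below the negative extraction (log2 difference -2.86, SE 0.51, adjusted p = 0.00042). miR-301a-3p stood at 215, 274 and 150 CPM at 12 h, against 1676 and 3036 CPM in total RNA and 141 CPM in the negative extraction (-3.02, SE 0.72, adjusted p = 0.00546). Its 0 h libraries averaged 64.0 ± 35.6 CPM, a log2 difference of -4.95 from total RNA. The contrast of 12 h with 0 h, fitted without pairing by experiment, was 1.94 (edgeR adjusted p = 0.169).

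Of the growth-promoting clusters, miR-106b-5p stood at 33.5, 28.2 and 21.7 CPM at 12 h, against 328 and 460 CPM in total RNA (-3.41, adjusted p = 0.000221). miR-19b-3p, a member of the miR-17~92 cluster, stood at 36.0, 63.5 and 41.1 CPM, against 386 and 712 CPM (-3.10, adjusted p = 7.43e-05). In the negative extraction these miRNAs stood at 74.0 and 59.9 CPM, also below both totals. miR-29b-3p, a repressor of collagen mRNAs, stood at 15.8, 27.4 and 22.1 CPM at 12 h, against 200 and 260 CPM in total RNA (-3.01, adjusted p = 0.000245). The hypoxia-induced miR-210-3p was at 58.5, 38.8 and 35.9 CPM, against 142 and 448 CPM (-2.11, adjusted p = 0.00105). For miR-101b-3p, at 98.7 to 136 CPM against 521 and 693 CPM, the call was lost when canonical reads alone were counted (adjusted p = 0.621).

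miR-21a-3p, the passenger of miR-21a-5p, stood at 185.3, 156.2 and 125.1 CPM at 12 h, against 1419 and 1649 CPM in total RNA (-2.91, adjusted p = 4.71e-06), so the arms of this hairpin gave different results. miR-148b-5p and miR-450b-5p were lower too, at 22.9 to 28.0 CPM and 22.9 to 32 CPM, against 166 and 321 CPM and 134.9 and 532.1 CPM in total RNA (-2.79 and -2.81). miR-92a-1-5p, the passenger of miR-92a-3p, differed from the other 11 in its level at the start of the chase. It stood at 68.0, 169 and 76.6 CPM at 12 h, against 695 and 1068 CPM in total RNA (-2.65, adjusted p = 0.00276), whereas its mean of 651 CPM at 0 h gave -0.23 against total RNA (interval -1.43 to 0.97). The other 11 were called against total RNA at 0 h as well. The contrast of 12 h with 0 h for miR-92a-1-5p, fitted without pairing by experiment, was -2.42 with an edgeR adjusted p of 0.0707.

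The 12 named miRNAs with the largest excess at 12 h had log2 differences of 1.51 to 2.68 (adjusted p of 0.0105 or less). They included 5 let-7 guides, and let-7a-5p stood at 15571, 31871 and 21388 CPM at 12 h, against 7487 and 6399 CPM in total RNA and 33661 CPM in the negative extraction (2.13, SE 0.39, adjusted p = 0.000643). miR-146b-5p, induced by NF-kB signalling, stood at 2251, 1408 and 2182 CPM at 12 h, against 1277 CPM in unlabelled and 274 CPM in 4SU-pulsed total RNA. The total RNA libraries thus differed from each other more than the nearer of them did from the 12 h libraries. miR-320-3p, cut without Drosha, stood at 691, 1125 and 837 CPM, against 454 and 370 CPM (1.51, adjusted p = 0.00231). miR-328-3p stood at 476, 552 and 404 CPM, against 203 and 155 CPM (1.82, adjusted p = 0.00039). let-7c-5p, let-7d-5p, let-7b-5p, miR-181b-5p and miR-30a-3p, the other named members, had differences of 1.91, 1.62, 1.52, 1.54 and 1.53. miR-501-3p, from an intron of Clcn5, stood at 250.5, 112.1 and 188.3 CPM, against 73.3 and 53.3 CPM (1.94, adjusted p = 0.000276).

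miR-205-5p, an epithelial miRNA, had the largest excess. It stood at 499, 390 and 215 CPM at 12 h, against 181.8 and 30.9 CPM in total RNA, and at 648 CPM in the negative extraction (2.68, SE 0.68, adjusted p = 0.00801). It was the one member of the epithelial list called, of 2 tested and 7 listed. The list summed to 216.7 to 501.3 CPM at 12 h, against 186 and 33.1 CPM in total RNA and 740 CPM in the negative extraction. The mesenchymal markers, by contrast, summed to 157627 to 195149 CPM at 12 h, against 246686 and 215560 CPM in total RNA, with 0 of 6 called. The blood list summed to 266 to 543 CPM at 12 h, against 221.6 and 238.9 CPM in total RNA and 324 CPM in the negative extraction, with 0 of 2 tested called. The neural list summed to 401 to 513 CPM, against 404 and 514 CPM, with 0 of 3 called. Muscle miRNAs were at 9.47 CPM or less at 12 h and stem cell miRNAs at 0. The part of another cell source or of carry-over in these results was not tested, and in bulk RNA fewer cells of a type and less RNA per cell cannot be told apart.

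The calls of the excess rested on the 4SU-pulsed total RNA library. Against unlabelled total RNA alone, only let-7a-5p and miR-328-3p of the 12 were called (adjusted p of 0.0341 for let-7a-5p), with log2 differences of 0.66 to 1.65, all above 0, for the 12. The lowest, miR-146b-5p, had an adjusted p of 0.402, and miR-205-5p had 1.06 with 0.48. In the 5 libraries alone these last miRNAs had adjusted p of 0.131 (miR-146b-5p) and 0.0985 (miR-205-5p), and with total RNA as one group miR-205-5p had 0.0813. Against 4SU-pulsed total RNA alone all 12 were called. All 12 of the miRNAs with the largest deficits were called against either library alone, with adjusted p of 0.0384 or less.

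In the negative extraction the 12 depleted miRNAs ranged between 0 and 1102 CPM and the 12 enriched between 95.1 and 147977 CPM. Set against this library in a fit of all 24, 0 of the 24 were called (smallest adjusted p 0.0519 for the depleted and 0.27 for the enriched). Differences from it were -1.23 to 1.73 log2 among the 10 depleted miRNAs that had over 3 counts there and -0.75 to 1.14 among the enriched, and with 283922 counts in 1 library they could not be bounded tightly. Over all miRNAs, 18 of 521 were called between 12 h and the negative extraction, with 76 at an unadjusted p below 0.05. miR-365-3p (2.05), miR-676-3p (3.28) and miR-29a-3p (1.46) were higher at 12 h, and miR-378a-3p (-2.73), miR-542-3p (-3.22) and miR-351-5p (-2.19) were lower. These 6 were chosen after their values were seen. How much of the difference from total RNA comes from RNA retained without a label was not tested.

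**Figure D2:**
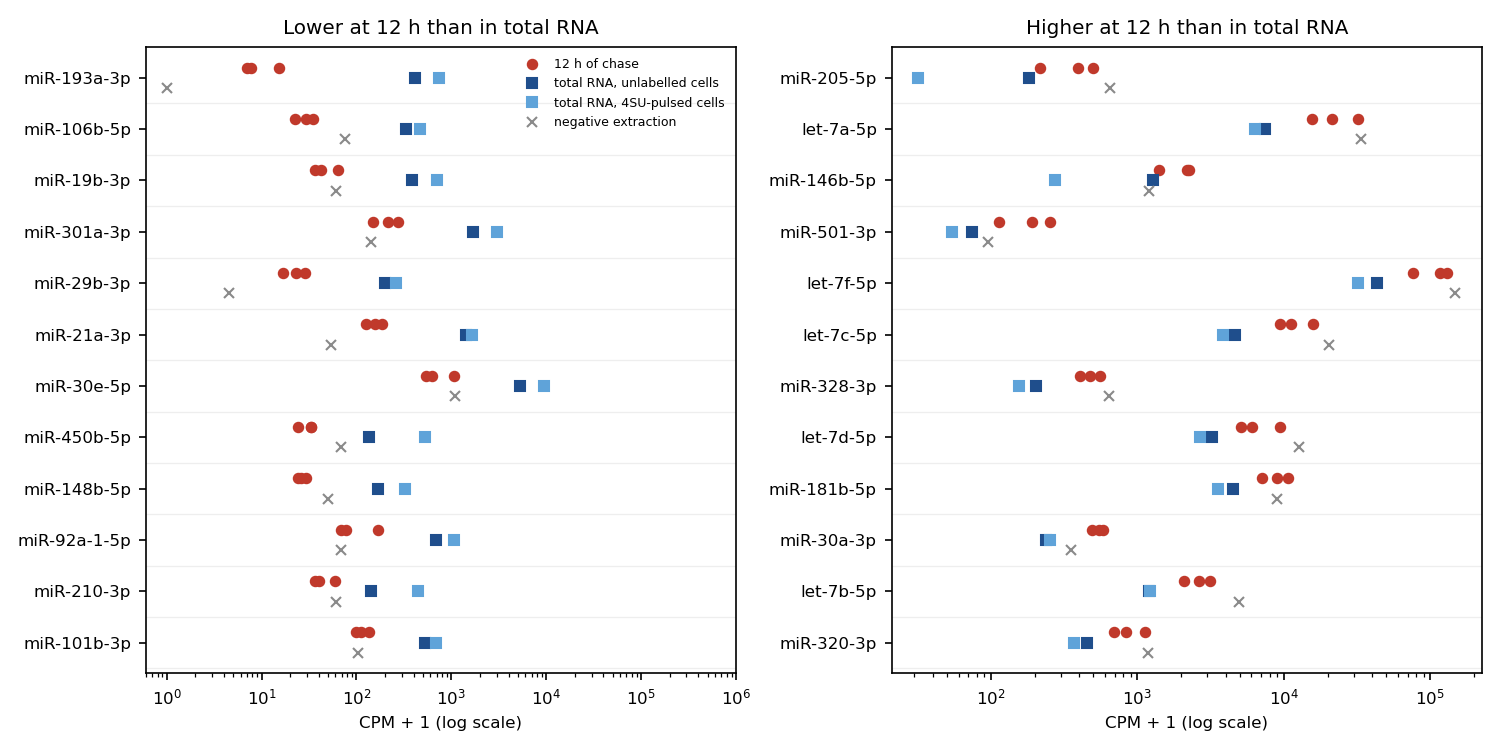
CPM plus 1 (horizontal, log scale) of the 12 miRNAs with the largest deficits (left) and the 12 with the largest excess (right) in each 12 h library (red circles), in unlabelled and 4SU-pulsed total RNA (dark and light blue squares) and in the negative extraction (grey crosses). Red circles do not overlap the squares in any row, which the choice of these miRNAs required; miR-193a-3p lies at 6.09 to 14.1 CPM against 408 and 733 CPM.

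Members of one seed family did not always share one result. In the let-7 family, which restrains growth programmes, the 9 guide miRNAs with the seed GAGGUAG made up 17.6, 26.8 and 22.6% of all miRNA reads at 12 h, against 10.8% in unlabelled and 8.66% in 4SU-pulsed total RNA and 32.6% in the negative extraction. Of the 9, 7 were called higher and 0 lower, with differences between 0.78 (let-7g-5p, adjusted p = 0.082) and 2.13 (let-7a-5p). let-7f-5p, the most abundant, stood at 76180, 130608 and 115919 CPM at 12 h, against 43464 and 32118 CPM in total RNA. let-7i-5p stood at 56587, 53135 and 53181 CPM, against 39545 and 32338 CPM (0.99, adjusted p = 0.00141); its call was lost against unlabelled total RNA alone (adjusted p = 0.21), without a filter on low counts (0.133) and in the 5 libraries alone (0.0689). let-7e-5p had a difference of 1.99 that did not pass (adjusted p = 0.0861), with 18974 CPM in experiment 2 against 5533 and 7981 CPM in the others.

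The seed family of miR-25 and miR-92 was higher in its abundant members. miR-25-3p, from the Mcm7 cluster, stood at 12598, 9998 and 10884 CPM at 12 h, against 5796 and 7016 CPM in total RNA (1.2, adjusted p = 0.00042). Together with miR-92a-3p and the rarer members it took 11.8, 16.9 and 13.0% of reads at 12 h, against 6.5 and 8.2% in total RNA. In the miR-181 family, known for roles in lymphocytes, 3 guides were higher and 1 lower. miR-181b-5p stood at 7108, 10597 and 8932 CPM at 12 h, against 4507 and 3573 CPM in total RNA (1.54, adjusted p = 0.0105), and miR-181a-5p and miR-181d-5p had differences of 1.09 and 1.35. miR-181c-5p went the other way, at 118, 111 and 118 CPM at 12 h, against 444 and 323 CPM in total RNA (-1.32, adjusted p = 0.00271).

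In 4 other families the differences were below 0 for every tested guide, while their sizes varied widely. In the miR-30 family they were -0.14 for miR-30d-5p, -0.51 for miR-30c-5p, -1.28 for miR-30a-5p, -1.73 for miR-30b-5p and -2.86 for miR-30e-5p, and 3 of 5 were called. miR-30a-5p and miR-30e-5p have the same length and differ by the single substitution C13U, written as the miR-30a-5p base, the position counted from 1 at the 5' end and the miR-30e-5p base. Their intervals were -2.10 to -0.47 and -3.92 to -1.80, and the difference between them was not tested. miR-30d-5p, with the interval -0.54 to 0.26, was separated from miR-30e-5p and miR-30b-5p (-2.25 to -1.21) by intervals that do not meet. With upper-quartile scaling the sign of miR-30d-5p turned (0.01).

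Guides with the seed AAAGUGC ran from -0.08 (miR-93-5p, interval -0.56 to 0.39) over -0.94 (miR-20a-5p) and -1.01 (miR-17-5p) to -3.41 (miR-106b-5p, interval -4.57 to -2.26). miR-93-5p and miR-106b-5p come from the same Mcm7 transcript; miR-93-5p stood at 1949, 1582 and 1343 CPM at 12 h, against 2191 and 2315 CPM in total RNA. The sign of miR-93-5p was positive (0.02 to 0.07) with upper-quartile scaling, without the 12 h library of experiment 3 or without unlabelled total RNA. With the seed AGUGCAA, miR-130a-3p was at -0.31 and miR-130b-3p at -0.85 (adjusted p = 0.0608), whereas miR-301b-3p and miR-301a-3p were called at -2.08 and -3.02. miR-130a-3p stood at 1410, 1198 and 1185.5 CPM at 12 h, against 1662 and 2528 CPM in total RNA; at 0 h it had been called at -0.82 (adjusted p = 0.00325). In the miR-29 family, miR-29a-3p stood at 3759, 3548 and 3543 CPM at 12 h, against 7718 and 6861 CPM in total RNA (-0.62, adjusted p = 0.125). miR-29c-3p and miR-29b-3p were called at -1.71 and -3.01. Reads of such close relatives may have been divided between names by the authors' counting, by a rule that the labels do not state.

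**Figure D3:**
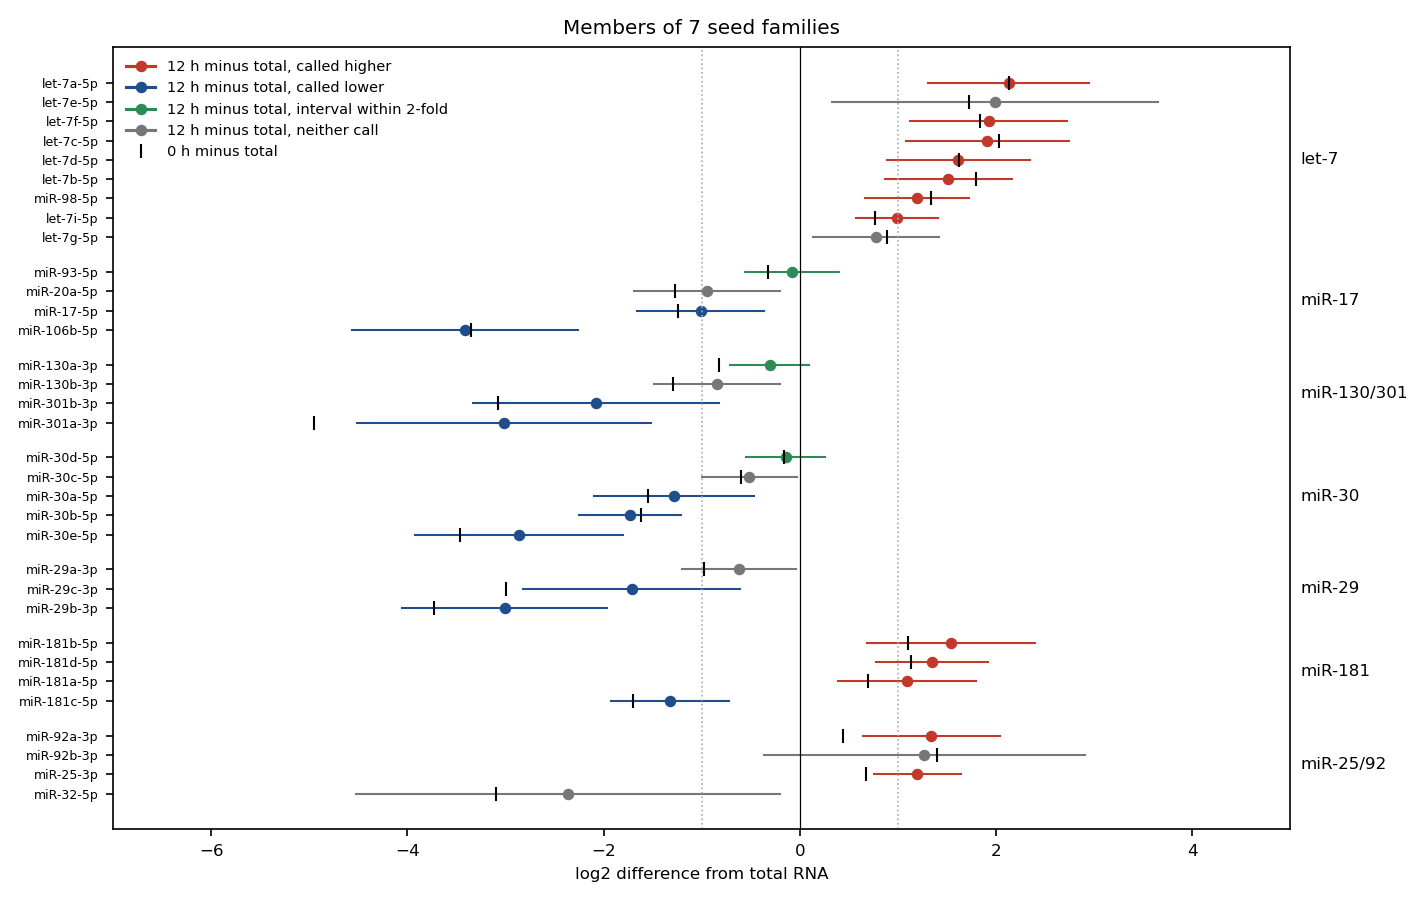
Log2 difference of 12 h from total RNA (circles, with 95% intervals) and of 0 h from total RNA (ticks) for the tested guides of 7 seed families, with dotted lines at 2-fold. The let-7 guides lie at 0.78 to 2.13, while the miR-30 guides spread between -2.86 and -0.14.

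The other families and clusters are given by counts, to be read beside the 9.11% higher and 10.3% lower among all tested miRNAs. In the X-linked cluster that holds miR-322, miR-503 and their neighbours, 0 of 11 tested members were higher and 4 lower, with a median of -0.54 against 0.18 for all tested miRNAs. miR-450b-5p, miR-450a-5p and miR-542-3p were among the lower, whereas the abundant miR-351-5p stood at 8300, 7497 and 6013 CPM at 12 h, against 5320 and 11621 CPM in total RNA, with an adjusted p of 0.751. miR-503-5p, for which degradation triggered by its targets has been reported, was at 0.609, 0 and 0.395 CPM at 12 h, below the level of 3 counts in each library, against 2.18 and 7.51 CPM in total RNA. Its fitted difference was -2.83 (adjusted p = 0.0162), and it averaged 4.27 ± 0.142 CPM at 0 h (SD, n = 3). Of all 20 tested miRNAs with reported target-directed degradation, 1 was higher and 3 lower, with a median of 0.26, which is near those shares.

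The miR-17~92 and miR-106b~25 clusters had 16 tested members, of which 4 were higher and 6 lower (median -0.09). In the miR-15/16 family 2 of 10 were lower and 0 higher, while miR-16-5p, known to slow cell division, differed by 0.27 (adjusted p = 0.698). The miR-23, miR-27 and miR-24 clusters had 1 of 11 higher and 1 lower, and 2 within 2-fold. Among relatives of miR-10, miR-100 and miR-125b, 5 of 12 were within 2-fold of total RNA and 1 was called in each direction. The higher one was miR-99b-5p, at 28034, 15172 and 21763 CPM at 12 h, against 10028 and 15960 CPM in total RNA (1.16, adjusted p = 0.0105), with 1 of its 12 h libraries between the totals. Of the mesenchymal miRNAs 1 of 11 was lower, miR-21a-3p, and 0 were higher. The repeats of the miR-466 and miR-467 type, many from an intron of Sfmbt2, had 1 higher and 1 lower of 39 (median -0.43), in a family whose close copies make single members uncertain.

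The miR-34 family had 1 lower of 6, the family of miR-148a 1 lower of 6 and the miR-183, miR-96 and miR-182 cluster 1 higher of 6. The miR-221 cluster had 0 calls of 4, with 1 at an unadjusted p below 0.05 and miR-221-3p within 2-fold (0.25, adjusted p = 0.535). In the Clcn5 intron 1 of 10 was higher, 2 were lower and 2 within 2-fold, and miR-501-3p and miR-188-5p of that one intron had 1.94 and -3.10 (adjusted p = 0.000276 and 3.18e-05). Of 13 tested miRNAs that are made without Drosha or Dicer, 2 were higher and 0 lower. With so few members, most of these counts lie near the 9.11% and 10.3% of all tested miRNAs.

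The direct contrast of 12 h with 0 h called miR-3061-3p, whose place in total RNA is a case of its own. It stood at 80.4, 73.3 and 76.2 CPM at 12 h, against 31.3 CPM in unlabelled and 73.6 CPM in 4SU-pulsed total RNA, and 34.3 ± 3.76 CPM at 0 h. One total RNA library thus matched each end of the chase. Against both totals it was higher by 1.07 at 12 h (adjusted p = 0.0158).

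Base composition was compared as a feature that the choice of libraries did not use. A RefSeq sequence was at hand for 418 of the 505 miRNAs (82.8%). Over the 127 of these at 100 CPM or more, the log2 difference of 12 h from total RNA correlated with the number of adenosines at a Spearman rho of -0.38, with guanosines at 0.29 and with uridines, the base that 4SU replaces, at 0.24. Over all 418 the coefficients for adenosine and uridine were -0.25 and 0.02. Of all 148 tested miRNAs at 100 CPM or more, with or without a sequence, 32 were called higher and 22 lower. The counts by base are to be read beside these. The 31 abundant miRNAs with 0 to 3 adenosines had a median difference of 0.80, with 13 called higher and 1 lower, and the 47 with 6 to 7 had a median of 0.08, with 8 higher and 10 lower. Of the 21 miRNAs with 9 or more uridines 11 were higher and 1 lower, and 7 of the 21 were let-7 guides. Without the 9 let-7 guides, rho was -0.39 for adenosine and 0.13 for uridine over 118 miRNAs. For the negative extraction over total RNA, the coefficients over the 127 were -0.24 for adenosine, 0.39 for guanosine and 0.07 for uridine. These are descriptions across miRNAs that share libraries and seeds, and miRNAs are not independent replicates.

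Arms were compared as log2 of the minor over the major arm of one hairpin, where the arm counted more often in labelled libraries of 2 to 10 h is called major. Of 160 pairs with both arms tested, 47 (29.4%) differed between 12 h and total RNA (limma, adjusted p below 0.05), 10 with the minor arm higher and 37 with it lower relative to its partner, and for 4 the interval lay within 2-fold. In 7 of the 47 the arms were themselves called in opposite directions, in 31 only one arm was called, and in 9 neither was. When the major arm was taken from total RNA, 17 pairs changed it and 47 were called, but 44.7% rather than 21.3% of these had the minor arm higher. Without 4SU-pulsed total RNA 18 were called. The median of the differences over the 160 pairs was -0.55. The median ratio per library was -3.36 ± 0.11 (SD, n = 3) at 12 h and -3.41 in total RNA (exact permutation test, two-sided, p = 0.7, where 0.1 is the smallest p possible).

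Among the called pairs, the miR-30e hairpin had the largest rise of the minor arm relative to the major arm. The log2 ratio of miR-30e-3p to miR-30e-5p was -1.34, -2.11 and -1.03 at 12 h, against -5.37 and -6.07 in total RNA, and -2.12 in the negative extraction. The arms changed in opposite directions, and their levels lay closer together at 12 h than in total RNA. miR-30e-5p was lower and miR-30e-3p, at 244, 244 and 264 CPM against 126 and 141 CPM, higher (difference of the ratio 4.23, SE 0.65, limma adjusted p = 0.000114). miR-30a-3p and miR-30a-5p gave ratios of -3.14, -3.80 and -3.16 at 12 h, against -6.15 and -6.32 in total RNA (2.87, adjusted p = 2.53e-05), and the miR-30b pair a difference of 2.35 (adjusted p = 0.000422). In the miR-542 hairpin the 3p arm was lower, so the ratio of miR-542-5p to it was higher by 3.42 (adjusted p = 0.000155), with -3.05 and -3.96 in total RNA. The -4.82 of the negative extraction rests on 3.52 CPM of miR-542-5p, below the 10.6 CPM of 3 counts there. The miR-33 pair, called at 2.69, rested on 1.52 CPM or less in each 12 h library and lost its call without 4SU-pulsed total RNA (adjusted p = 0.072).

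In miR-193a, the 3p arm dominated total RNA, and at 12 h it was the more abundant arm in experiment 2 only. The log2 ratio of miR-193a-3p to miR-193a-5p was -0.52, 2.05 and -1.43 at 12 h, against 5.46 and 5.88 in total RNA (difference -5.63, SE 1.05, adjusted p = 0.000422). miR-193a-5p, at 9.14, 2.65 and 19.7 CPM against 8.27 and 11.5 CPM, had no called difference of its own. Its 2.65 CPM in experiment 2 is the level of 3 counts there, so the order of the arms in that library is uncertain. For miR-106b, where the arms changed in opposite directions, the ratio of 5p to 3p was -3.61, -4.42 and -4.30 at 12 h, against 0.59 and 0.85 in total RNA (-4.83, adjusted p = 0.000207). miR-106b-3p stood at 421, 627 and 446 CPM at 12 h, against 217 and 255 CPM in total RNA. miR-18a gave a like shift of its ratio (-4.01, adjusted p = 0.000155). The ratio of miR-92a-1-5p to miR-92a-3p was -10.57, -9.86 and -10.58 at 12 h, against -6.40 and -6.13 in total RNA (-4.07, adjusted p = 7.7e-06), and at 0 h its difference from total RNA had been -0.68 (adjusted p = 0.306). miR-92a-3p has 2 gene copies, so its partner accounts for 1 of them. The pair of let-7f-2-3p and let-7f-5p (-5.12) has the same limit and was not called against unlabelled total RNA alone (-4.10). let-7f-2-3p stood at 5.79, 0 and 5.13 CPM at 12 h, so the pseudocount sets its ratio of -16.99 in experiment 2.

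**Figure D4:**
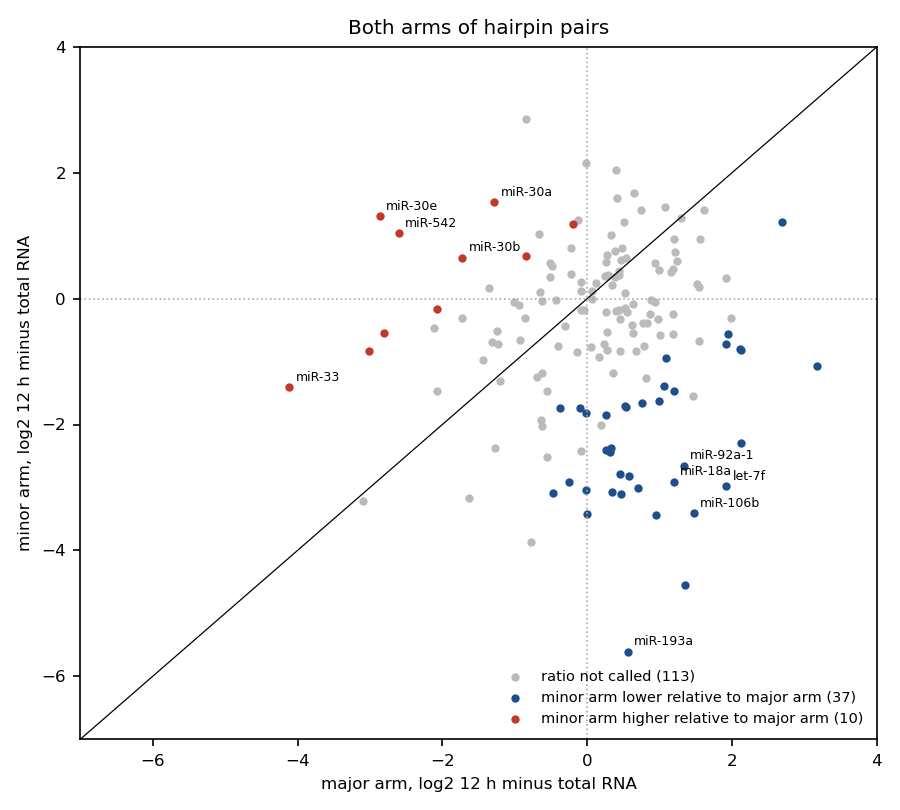
Log2 difference of 12 h from total RNA for the minor arm (vertical) against the major arm (horizontal) of 160 pairs, with the line of equality. Pairs with a called ratio are blue (37, minor arm lower relative to the major arm) or red (10, higher), the 10 named pairs carry labels, and miR-193a lies lowest, at -5.61 for its minor arm.

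Isoforms were compared as shares of their own miRNA's reads, so that a change of the miRNA's level does not enter. Of 928 isoform entries from 160 miRNAs, 77 (8.3%) differed (edgeR with the miRNA's count as offset, adjusted p below 0.05), 42 higher (4.53%) and 35 lower (3.77%). The interval lay within 2-fold of the share in total RNA for 122 of 156 canonical, 85 of 153 trimmed and 71 of 124 templated 3' extended forms. The count of calls was 16 when the 5 libraries alone were fitted and 22 without 4SU-pulsed total RNA. Trimmed forms were called mostly in one direction, 17 higher and 2 lower of 153 (median 0.17), while canonical forms had 4 higher and 8 lower of 156 (median -0.06). Forms with 3' adenosine had 4 higher and 7 lower of 123, and those with 3' uridine 5 higher and 2 lower of 97. The class names are those of the deposited table, and what defines each class is not stated in the labels.

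In miR-130a-3p, whose level was near that of total RNA, the forms differed. Its canonical form took 6.44, 8.92 and 4.40% of its reads at 12 h, against 30.4 and 28.0% in total RNA and 6.64% in the negative extraction. The groups did not overlap (log2 difference of the share -2.18, SE 0.55, adjusted p = 0.0192). Its form with 3' adenosine took 2.55, 3.39 and 2.20%, against 10.9 and 14.7% (-2.26, adjusted p = 0.019), and its trimmed forms averaged 87.3%, against 48.0% (0.87, adjusted p = 1.25e-05). The calls of the canonical form and the form with 3' adenosine were lost without the 12 h library of experiment 1 (0.0619 and 0.0655) or 3 (0.0815 and 0.0756) or without 4SU-pulsed total RNA (0.0827 and 0.142), and that of the canonical form also without unlabelled total RNA (0.0606). With canonical reads alone the level of miR-130a-3p was called lower (-2.59, adjusted p = 0.00252). Trimmed forms of the related miR-130b-3p averaged 50.7% at 12 h, against 17.8% in total RNA (1.5, adjusted p = 0.000161).

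The 4 miR-181 guides had more trimmed forms at 12 h as well, at 47.3% against 27.4% for miR-181a-5p, 57.8% against 41.5% for miR-181b-5p, 18.7% against 6.79% for miR-181c-5p and 47.4% against 30.1% for miR-181d-5p (adjusted p of 0.0378 or less). The share of miR-181c-5p varied, at 20.7, 7.94 and 27.4% at 12 h, and its call was lost without either total (adjusted p = 0.129 and 0.194) and without the 12 h library of experiment 1 (0.0865) or 3 (0.159). Trimmed miR-22-3p took 5.02, 5.77 and 6.06% at 12 h, against 1.47 and 1.41% in total RNA and 3.26% in the negative extraction (1.96, SE 0.25, adjusted p = 0.000161). In miR-322-5p trimmed forms took 1.61, 0.997 and 1.76%, against 3.97 and 4.32% (-1.43, adjusted p = 0.00441), while its form with 3' uridine averaged 36.8% at 12 h, against 17.2% (1.10, adjusted p = 0.000482).

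The form of miR-99b-5p with 3' uridine took 2.64, 3.53 and 2.91% at 12 h, against 0.565 and 0.523% in total RNA and 1.86% in the negative extraction (2.47, SE 0.18, adjusted p = 1.5e-07). It had been 4.8% at 0 h. miR-100-5p, of the same group, had 0.789% against 0.282% (1.47, adjusted p = 0.00285). The canonical form of miR-21a-3p took 1.97, 0.565 and 0.315% at 12 h, against 8.31 and 11.3% in total RNA (adjusted p = 0.0184). In experiments 2 and 3 these shares stand for fewer than 3 reads each, so no fold is given. Here the 0 h libraries, at 9.71%, and the negative extraction, at 13.3%, were near total RNA, and the call was lost without the library of experiment 3 (adjusted p = 0.0756) or without 4SU-pulsed total RNA (0.106). Canonical miR-152-3p averaged 6.82% at 12 h, against 20.3% in total RNA (-1.52, adjusted p = 0.0114; 0.0827 without 4SU-pulsed total RNA). The called entries of miR-501-3p (3' adenosine and trimmed, both higher), miR-30b-5p (3' templated, higher) and miR-181a-5p (3' templated, lower) lost their calls without 4SU-pulsed total RNA (adjusted p of 0.157, 0.187, 0.247 and 0.205). All but the trimmed form of miR-501-3p were also lost without the 12 h library of experiment 3 (0.0532, 0.0641 and 0.0793), and others of the 5 libraries ended the calls of miR-30b-5p (up to 0.154), miR-181a-5p (0.0718) and the 3' adenosine form of miR-501-3p (0.0651).

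Summed over all miRNAs, canonical reads made up 47.8, 45.7 and 45.9% at 12 h, against 54.4 and 52.3% in total RNA and 58.2% in the negative extraction. The groups did not overlap, but 3 libraries against 2 cannot give a p below 0.1 (exact permutation test, two-sided, p = 0.1, adjusted p = 0.286 over 10 classes). miR-22-3p alone supplied 33.1% of the canonical reads in total RNA, against 8.40% at 12 h. Trimmed reads made up 23.9, 15.1 and 22.4% at 12 h, against 14.5 and 14.0% in total RNA. As the median over 76 well-covered miRNAs, the canonical share was lower by 4.09 points and the trimmed share higher by 1.54 points. Reads with mixed 3' additions made up 6.87, 9.32 and 7.87%, against 4.49 and 5.98%, and miR-92a-3p supplied 82.2% of them at 12 h and 72.1% in total RNA. Those with 3' adenosine made up 4.31, 4.90 and 4.42%, against 3.18 and 3.65%, and those with 3' uridine 2.46, 2.11 and 2.17%, against 2.71 and 2.84%. For these last 3 classes the median over miRNAs went the other way.

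**Figure D5:**
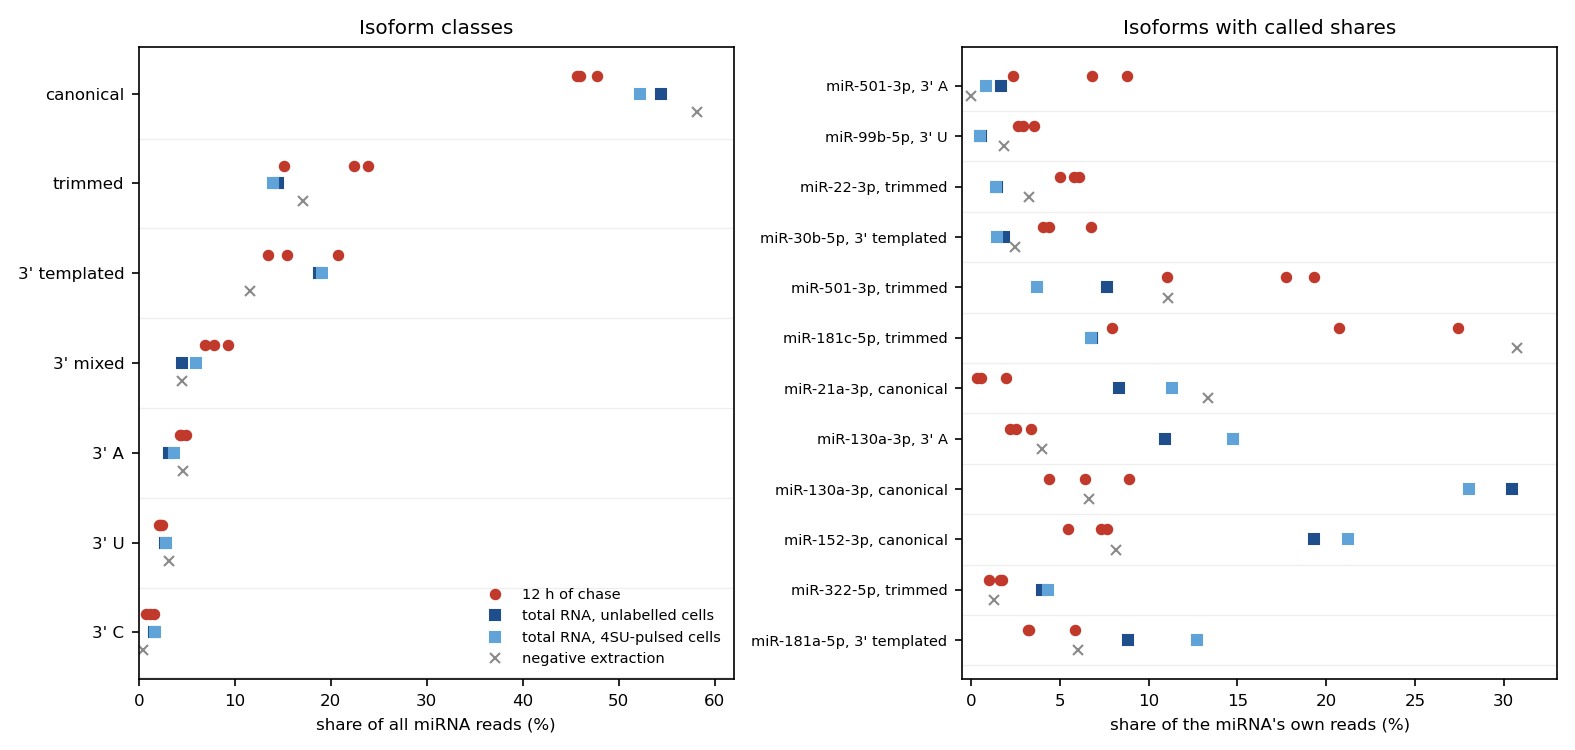
Left, share of all miRNA reads (%) in 7 isoform classes; right, share of the miRNA's own reads (%) for the 12 named isoforms, in each 12 h library (red circles), in unlabelled and 4SU-pulsed total RNA (dark and light blue squares) and in the negative extraction (grey crosses). Canonical reads lie at 45.7 to 47.8% at 12 h against 52.3 and 54.4% in total RNA.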

How the data were processed

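The table that the authors deposited holds read counts per isoform entry of each mature miRNA, with one column per library, and every column was mapped to a sample by its label. The submitters' processing notes name CASAVA 1.8.0. What aligned the reads, which annotation was used and how multiply matching reads were counted is not given in the sources used here. Of 7129 entries 1 duplicate was removed. Entries that repeat others (equal in 25728 of 25728 cells) were used once, which left 6056 entries for 1221 names.

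Counts were summed per miRNA and tested with edgeR 4.0.16 (R 4.3.3; TMM, filterByExpr, quasi-likelihood) on 23 libraries, 21 labelled and 2 of total RNA. Each total had its own coefficient, and the contrast was 12 h minus their mean. A lone total is thus assumed to vary like the labelled experiments. The series text calls these independent. Intervals are 95%. Arm ratios (pseudocount 1 CPM) were fitted with limma 3.58.1, and isoform shares with edgeR for entries with at least 10 counts in 5 libraries, from miRNAs with at least 50 counts in each of the 5 libraries. DESeq2 1.42.0 was an alternative. Levels of 3 counts, given as floors, cover counting error only, since the reads carry no molecular identifiers. The intervals rest on the spread between the labelled libraries of each time. These 21 libraries are 7 times of the same 3 experiments, and the fits treat them as separate samples. The distance to total RNA was 0.89 to 1.06 at all times in experiment 2, against 0.56 to 0.67 in experiment 1. Against total RNA the intervals may thus be too narrow and the calls too many. The contrast of 12 h with 0 h leaves out the pairing by experiment, so there the intervals may be too wide.

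The miRNAs named were the 12 called in each direction with the largest differences among those of at least 100 CPM whose groups did not overlap, the 10 most abundant in total RNA, the 8 of at least 1000 CPM with the tightest bounds, the 5 arm pairs and 6 isoforms (share of at least 2%) with the largest differences in each direction, and up to 4 members of each of 19 lists by abundance. The 7 seed families, and isoforms and list members beyond these, were named after their values were seen. The members and lists were chosen with earlier results of these data known. In simulated counts for the 12 h contrast on 479 miRNAs, 24.7% of 2-fold and 69.1% of 4-fold changes were called, and 1.4% of unchanged ones. The simulated libraries were drawn independently, with no level shared within an experiment.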

Additional observations from a re-analysis of the deposited data

How the results depend on the processing

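Calls between 12 h and total RNA numbered 98 for miRNAs, 47 for arm ratios and 77 for isoform shares. A replicate block for the labelled experiments gave 233 (all 98 among them), 84 and 269, and 104 rather than 43 miRNAs within 2-fold. The block takes the spread between experiments out of the error, and total RNA stands outside it, so these counts do not allow for that spread. No paired analysis was possible because total RNA carries no experiment number. Leaving out single libraries gave 46 to 90 miRNAs, 18 to 51 arm ratios, 22 to 72 isoform shares and 22 to 42 miRNAs within 2-fold, with the fewest calls without 4SU-pulsed total RNA (46, 18 and 22). With the negative extraction in place of total RNA (chosen after seeing the data) 18 were called and 24 lay within 2-fold. The 5 libraries alone gave 16 isoform calls. Without a filter on low counts 264 miRNAs lay within 2-fold, unmeasured ones included. The mean distance of 0.79 was 0.50 with a pseudocount of 5 CPM. The difference in the median arm ratio, 0.04, was -0.41 with a pseudocount of 0.25 CPM and 0.21 with the major arm from total RNA. As a median over miRNAs, class shares differed by -0.40 points for 3' A, -0.16 for 3' mixed and 0.16 for 3' U, each with its sign turned, and by -0.0040 for 3' C, 0.0052 for 3' G, 0 for 5' mixed, -0.0051 for 5' templated, -4.09 for canonical and 1.54 for trimmed. The cause was not tested.

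Signs were followed only for the miRNAs, arm pairs and isoforms named by rank (level, difference or bound), not for the other family and list members. None of those followed that were called changed sign. With the major arm taken from total RNA, single pairs were not followed. Signs turned for miRNAs near 0. With total counts miR-143-3p was at -0.0474, miR-103-3p at -0.31 and miR-298-5p at -0.26. With upper-quartile scaling miR-125b-5p was at 0.0652, miR-30d-5p at 0.00989, miR-93-5p at 0.0722, miR-151-5p at 0.13 and miR-484 at 0.14. miR-103-3p and miR-298-5p were at -0.10 and -0.0598 with DESeq2, -0.20 and -0.15 without a filter and -0.12 and -0.0728 with total RNA as one group. Counting canonical reads put miR-143-3p at -0.0146, miR-27b-3p at -0.0163, miR-103-3p at -0.0424, miR-151-5p at 0.21 and miR-298-5p at -0.36. miR-103-3p was at -0.0363 in libraries thinned to equal depth, miR-484 at 0.0367 with an offset for uridine and miR-298-5p at -0.16 with one for adenosine (added after seeing the data). Leaving out single libraries put miR-103-3p between -0.188 and 0.14, miR-21a-5p between -0.756 and 0.0171, miR-93-5p between -0.386 and 0.0244 and miR-484 between -0.192 and 0.0859.

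The 12 h library of experiment 2 and the negative extraction were the shallowest, and in simulated data with these groups 2-fold changes were often missed. Each total RNA library is 1 sample.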
